A study of Homo sapiens with 6 samples.

Results

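The genes described here are 7 metallothioneins (MT1A, MT1E, MT1F, MT1G, MT1M, MT1X and MT2A), the transcription factor MTF1 and the zinc transporters SLC30A1 and SLC39A10. They were taken by name from the deposited table, which lists 57819 genes, and all 10 have a row. RNA was measured in 6 libraries, 3 per group, from IMR90 ER:Ras. These are cultured fibroblasts of the IMR90 lung line that carry a Ras oncogene joined to an estrogen receptor domain, which 4-hydroxytamoxifen (4OHT) switches on. Both groups received 200 nM 4OHT for 3 days, and the study's design describes the cells as senescent. The control group received a scrambled siRNA and the knockdown group siRNA that targets sin-lncRNA, a long noncoding RNA. All 3 knockdown libraries carry the same siRNA label, so its effects on other RNAs cannot be told apart from loss of sin-lncRNA. The comparison asked what depletion of sin-lncRNA changes in senescent cells. No library of cells without 4OHT is used here, and nothing in the labels says whether the replicates are separate cultures, so p-values measure the spread between these libraries, which may be technical.

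Metallothioneins are small proteins rich in cysteine that hold zinc, copper and cadmium. When free zinc rises, MTF1 binds short metal response elements in promoters and switches on metallothionein genes and SLC30A1. SLC30 (ZnT) proteins move zinc out of the cytosol, and SLC39 (ZIP) proteins move it in.

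Total reads in genes were 30271192 to 50913672 in controls and 22117324 to 27882280 in knockdowns, so every knockdown library was the shallower. Values below are reads per 1000000 of the library's effective size (RPM), and changes come from limma on the deposited log2 values over the 19048 genes with a mean of at least 10 normalized reads, called at a Benjamini-Hochberg adjusted p under 0.05. The targeted lncRNA, listed as RP4-530I15.6 (ENSG00000234693.1), went from 4.17 ± 0.52 to 0.556 ± 0.076 RPM (SD, n = 3), or 13.3% of control. All 8 fibroblast markers examined were read in every library, with summed levels of 15194 to 16360 RPM in controls and 10745 to 11166 in knockdowns. They did not move as a set: 4 rose (COL3A1, THY1, FAP and LUM) and 4 fell (COL1A1, COL1A2, VIM and PDGFRB), with a median log2 fold change of -0.10, and COL1A1, COL1A2 and VIM made up most of the sum. Summed epithelial markers were 28.0 to 31.3 and 28.6 to 31.4 RPM, endothelial ones (3 of 4 matched) 1.70 to 1.90 and 2.29 to 2.71, and leukocyte ones 0.133 to 0.206 and 0.0896 to 0.427. Of 4 epithelial markers tested, KRT18 rose by 0.35 and KRT8 and KRT19 fell by 0.38 and 1.31 on the log2 scale (limma adjusted p = 0.0014, 0.0095 and 0.00034), so their sum hides changes in both directions. Their part in the results was not tested. In bulk RNA, fewer cells that express a gene and less RNA per cell cannot be told apart.

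The metallothionein messages are nearly the same in their coding part. Each of the 7 member genes has a coding sequence of 186 bases, with 61 codons before the stop, of which 20 encode cysteine. The coding sequences of the 4 members with enough reads to test, taken from GENCODE 29 transcripts (GRCh38), are shown to make this likeness visible. Capitals in the MT1 sequences mark bases that differ from MT2A.
MT2A: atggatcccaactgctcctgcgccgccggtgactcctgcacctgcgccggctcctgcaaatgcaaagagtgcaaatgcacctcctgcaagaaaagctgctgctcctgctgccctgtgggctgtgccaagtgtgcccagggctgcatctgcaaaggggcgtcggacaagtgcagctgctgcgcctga
MT1E: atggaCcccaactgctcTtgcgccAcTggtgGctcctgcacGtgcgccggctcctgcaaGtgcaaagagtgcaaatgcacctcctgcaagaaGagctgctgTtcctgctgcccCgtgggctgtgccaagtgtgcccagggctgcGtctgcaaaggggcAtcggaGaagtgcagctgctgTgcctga
MT1X: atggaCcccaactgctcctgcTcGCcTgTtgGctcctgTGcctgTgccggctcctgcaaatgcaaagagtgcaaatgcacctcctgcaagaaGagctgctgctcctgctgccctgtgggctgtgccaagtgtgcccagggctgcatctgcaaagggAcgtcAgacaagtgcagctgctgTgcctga
MT1G: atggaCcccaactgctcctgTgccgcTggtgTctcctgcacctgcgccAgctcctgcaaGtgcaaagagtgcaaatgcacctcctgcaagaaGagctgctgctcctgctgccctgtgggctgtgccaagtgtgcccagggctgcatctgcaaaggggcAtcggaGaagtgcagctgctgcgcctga
MT1E and MT1X each differed from MT2A at 14 bases (92.5% identical), and MT1G at 9 (95.2%). Some processed pseudogenes, intronless copies of a message elsewhere in the genome, are as close. The next sequences are those of MT2P1, with capitals where it differs from MT2A, and of MT1XP1, with capitals where it differs from MT1X.
MT2P1: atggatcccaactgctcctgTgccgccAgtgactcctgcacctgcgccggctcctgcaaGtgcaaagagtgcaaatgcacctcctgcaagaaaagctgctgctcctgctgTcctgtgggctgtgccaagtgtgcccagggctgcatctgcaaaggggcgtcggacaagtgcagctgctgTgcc
MT1XP1: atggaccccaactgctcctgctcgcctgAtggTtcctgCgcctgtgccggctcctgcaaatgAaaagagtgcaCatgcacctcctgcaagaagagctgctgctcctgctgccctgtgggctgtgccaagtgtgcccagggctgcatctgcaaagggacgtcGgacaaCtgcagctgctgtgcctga
MT2P1 was identical to MT2A at 178 of 183 bases (97.3%), and MT1XP1 to MT1X at 179 of 186 (96.2%). The reads of the study are 50 bases long. Of the 737 windows of 50 bases in the MT2A transcript, 36 occur in a transcript of another gene, all in the coding part. The number was 35 of 655 for MT1E, 72 of 357 for MT1G and 181 of 401 for MT1X, so that 54.9% of the MT1X windows are unique among the transcripts. Of the 181 MT1X windows, 117 occur in transcripts of AC026461.1, 47 in MT1G, 38 in MT1XP1 and 14 in MT2A. Of the 117, 50 cross an exon junction of MT1X. Whether AC026461.1 is a separate copy or a transcript over MT1X itself was not tested. A window may occur in several genes, and 71 of the 181 do not lie wholly in the coding part. With up to 2 mismatches allowed, 123 MT2A windows match MT2P1, and 66 of these cross an exon junction. The submitters' processing notes name Bowtie2, featureCounts and hg19, and how reads with several matches were placed is not given in the sources used here. Values of single metallothioneins are therefore uncertain where reads could be split between copies.

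All 7 member genes that could be tested changed: MT2A, MT1E, MT1X and MT1G fell, and MTF1, SLC30A1 and SLC39A10 rose. Over all genes tested, 41.0% changed, 23.5% downward and 17.5% upward. The members were chosen with earlier results of these data known, so their count is no test against that share. No member changed by as much as 1 on the log2 scale. MT1A, MT1F and MT1M had too few reads. For each of the 7 tested genes all knockdown libraries lay on one side of all controls, as they did for 51.1% of genes tested (28.5% with the knockdowns lower and 22.6% with them higher). The exact two-sided permutation test then gives p = 0.1, which is the lowest value possible with 3 libraries in each group.

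**Figure D1:**
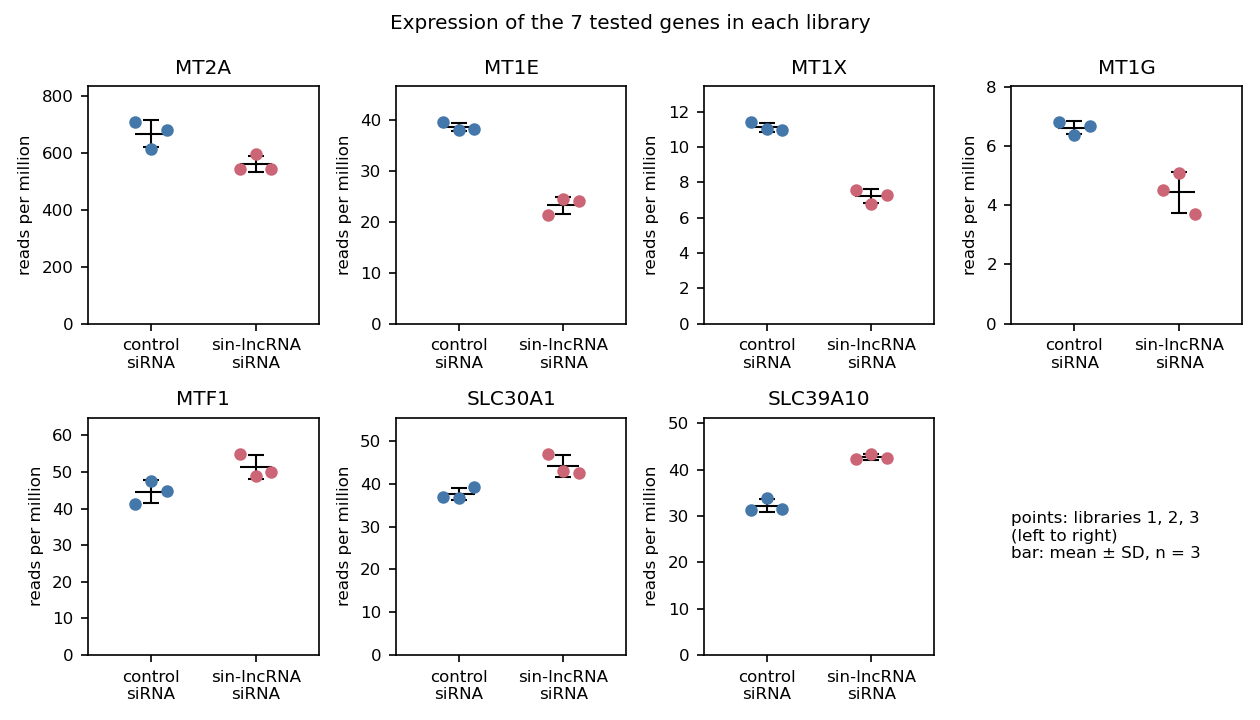
RPM (vertical axes, from 0, each panel on its own scale) of the 7 tested genes in control siRNA and sin-lncRNA siRNA libraries; points are libraries and bars the mean ± SD (n = 3). The knockdown points lie below the controls for the 4 metallothioneins and above them for MTF1, SLC30A1 and SLC39A10.

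MT2A (ENSG00000125148.6, chromosome 16, 56642111 to 56643409, hg19 as in the table) encodes the main metallothionein of these cells. Its level was 708, 615 and 681 RPM in controls 1, 2 and 3 and 544, 596 and 544 RPM in knockdowns 1, 2 and 3. Control 2 and knockdown 2 lay close together, and the groups did not overlap. The mean went from 668 ± 48 to 561 ± 30 RPM (SD, n = 3), or 84.0% of control. This was a log2 fold change of -0.25 (SE 0.06), with an adjusted p of 0.0052 in limma. After a correction for GC content and transcript length, chosen after seeing the data, it was -0.13 with an adjusted p of 0.052 in limma, so the call was lost.

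MT1E (ENSG00000169715.10, chromosome 16, 56659387 to 56661024) had the most reads of the MT1 member genes here. Controls had 39.5, 38.0 and 38.3 RPM and knockdowns 21.3, 24.4 and 24.0. The gap between the groups was many times the spread within either. The level fell to 60.2% of control, a log2 fold change of -0.73 (SE 0.06; limma adjusted p = 8.8e-06).

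MT1X (ENSG00000187193.8, chromosome 16, 56716336 to 56718108) had 11.4, 11.0 and 10.9 RPM in controls and 7.57, 6.79 and 7.27 in knockdowns. Its log2 fold change was -0.62 (SE 0.08; limma adjusted p = 0.00013), and with a pseudocount of 5 RPM it was -0.40, still called. MT1G (ENSG00000125144.9, chromosome 16, 56700643 to 56701977, minus strand) had 6.81, 6.39 and 6.70 RPM in controls and 4.53, 5.08 and 3.71 in knockdowns. Knockdown 3 was the lowest and knockdown 2 the highest of its group, and both were under every control. The log2 fold change of MT1G was -0.59 (SE 0.12; limma adjusted p = 0.0028), or -0.30 with a pseudocount of 5 RPM, still called.

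The other 3 member metallothioneins were close to undetected. MT1A had 9, 6 and 16 reads in controls and 6, 7 and 3 in knockdowns, and the groups overlapped in RPM (0.261 ± 0.059 and 0.225 ± 0.103; SD, n = 3). MT1F had 3, 0 and 2 reads in controls and 0 in each knockdown, and MT1M had 1, 1 and 0 reads in controls and 0 in each knockdown. Where no read was seen, as many as 3 may have been missed, which is 0.107 to 0.134 RPM in a knockdown library. No control value of MT1F or MT1M exceeded that limit, so a difference was not detectable at this depth. This limit takes in counting error alone, and PCR duplicates are not separate molecules.

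Per kilobase of the GENCODE 29 transcript used above, the 5 member metallothioneins with the most reads stood in one order in both groups. In controls MT2A had 850 ± 61 RPM per kilobase (RPKM; SD, n = 3), MT1E 54.8 ± 1.2, MT1X 24.7 ± 0.5, MT1G 16.3 ± 0.5 and MT1A 0.658 ± 0.149. In knockdowns the levels were 714 ± 38, 33.0 ± 2.4, 16.0 ± 0.9, 10.9 ± 1.7 and 0.568 ± 0.261 RPKM. Neighbours in this order differed by more than their SDs, which do not measure how reads were placed between copies. In controls, MT2P1 had 1915 ± 144 RPKM (above MT2A), MT1XP1 142 ± 9.8 (above MT1X) and the pseudogene MT1L 67.8 ± 3.9 (above MT1E). Whether the order holds with these reads placed otherwise was not tested. The sum of the 7 genes was 766, 671 and 737 RPM in controls and 578, 632 and 579 RPM in knockdowns, a log2 ratio of means of -0.28. MT2A held 91.7% to 92.4% of these reads in controls and 93.9% to 94.2% in knockdowns. The 6 MT1 members together went from 56.7 ± 1.3 to 35.1 ± 1.5 RPM (SD, n = 3).

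MT1E fell more than MT2A. Reads of MT1E were 5.58%, 6.18% and 5.62% of those of MT2A in controls and 3.91%, 4.10% and 4.41% in knockdowns. Both genes are measured in the same libraries, so this ratio does not depend on library scaling. The groups did not overlap, and the exact two-sided permutation test of the log ratio gave p = 0.1, the smallest possible.

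Pseudogene rows of the family carried many of its reads. MT2P1 (chromosome 4, 69242041 to 69242226) had 365, 320 and 367 RPM in controls and 285, 340 and 308 in knockdowns, and the groups overlapped at control 2 and knockdown 2. Its log2 fold change was -0.17 (95% interval -0.33 to -0.02, limma adjusted p = 0.070). The interval, unlike the adjusted p, takes no account of the number of genes tested. On a row of 186 bases, MT2P1 had as many as 51.5% to 53.9% of the reads of MT2A in controls and 52.3% to 57.2% in knockdowns. MT1XP1 (chromosome 1, 16567708 to 16567893; chosen after its values were seen) had more reads than MT1X itself, 215% to 258% in controls and 195% to 295% in knockdowns. MT1L (chromosome 16, 56651388 to 56652730), listed as a pseudogene beside MT1E and identical to its coding part at 176 of 186 bases, had 67.3% to 77.6% of the reads of MT1E in controls and 69.6% to 72.7% in knockdowns. How many of these reads came from the functional genes was not tested.

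Most pseudogene rows with enough reads fell as well. The log2 fold change was -0.75 for MT1L (SE 0.07; limma adjusted p = 1.7e-05), beside -0.73 for MT1E. MT1XP1 had -0.66 (SE 0.11; limma adjusted p = 0.00056), beside -0.62 for MT1X. MT1P3 fell by 0.56 on the log2 scale and MT1P1 by 0.42 (limma adjusted p = 0.0046 and 0.027). MT1P3 overlaps EDEM2 and MMP24-AS1 on the other strand, which had 5548 and 8954 reads in all libraries together, against 1137 for MT1P3. The strand setting is not given in the sources used here, and whether reads of these genes entered the MT1P3 row was not tested. The MT1P1 call was lost without control replicate 3 (-0.36, limma adjusted p = 0.111) and without knockdown replicate 1 (-0.27, 0.079). After the GC and length correction MT1P1 (-0.21, limma adjusted p = 0.174) and MT1P3 (-0.33, 0.073) were not called. MT1JP had 20 to 33 reads in controls and 8 to 18 in knockdowns, with a log2 fold change of -0.58 (95% interval -1.19 to 0.03). It did not pass the test (limma adjusted p = 0.121), except without knockdown replicate 3 (-0.83, limma adjusted p = 0.041). Of the 12 other metallothionein rows fixed beside the members, which leave out MT1XP1, 5 had enough reads. Of these 5 rows, 3 fell and 0 rose, where 23.5% of all genes tested fell and 17.5% rose. Their median log2 fold change was -0.56, beside -0.04 over all genes tested. The 5 rows resemble member genes in sequence, so their falls cannot be counted as separate from those of the members. All 20 metallothionein rows together, MT1XP1 included, summed to 1196, 1060 and 1178 RPM in controls and 902, 1021 and 931 in knockdowns.

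**Figure D2:**
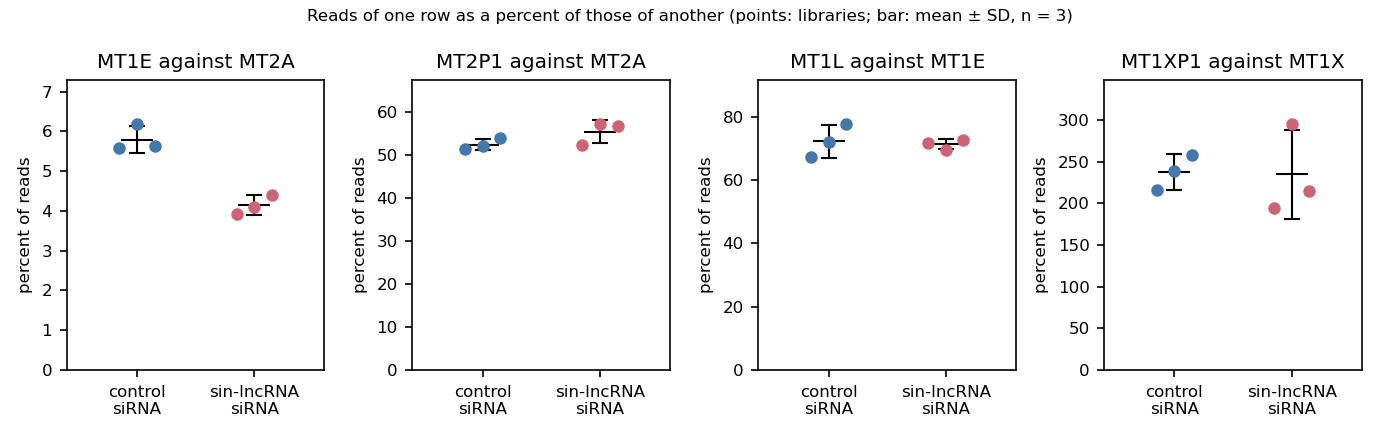
Reads of one row as a percent of the reads of another in each library (vertical axes from 0; points are libraries, bars the mean ± SD, n = 3). The MT1E share of MT2A is lower in every knockdown library, while the ranges of MT2P1 against MT2A, MT1L against MT1E and MT1XP1 against MT1X overlap between groups.

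Of the remaining rows, MT3, the brain metallothionein, had 4, 4 and 5 reads in controls and 0 in each knockdown. Over the groups, the control level of 0.114 RPM was 2.80 times a floor of 3 reads over the knockdown group (0.0406 RPM). This ratio rests on 13 reads and leaves out the counting error of the controls, so it is not a lower bound. Per library, the controls had 0.117, 0.133 and 0.0993 RPM, none above the upper end of the limit of 0.107 to 0.134 RPM used for MT1F and MT1M. MT1HL1 had 3 to 8 reads in controls and 2 to 7 in knockdowns, which overlapped.

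MTF1 (ENSG00000188786.9, chromosome 1, 38275239 to 38325292, minus strand), the zinc sensor that drives metallothionein genes, had 41.3, 47.6 and 44.9 RPM in controls and 55.0, 49.0 and 50.1 in knockdowns. Control 2 was the highest control and lay just under knockdown 2. The log2 fold change of MTF1 was 0.21 (SE 0.07; limma adjusted p = 0.028). The call was lost in 8 of 20 other fits, among them those without control replicate 1 (0.15, limma adjusted p = 0.089), control replicate 3 (0.21, 0.072), knockdown replicate 1 (0.15, 0.099) or knockdown replicate 3 (0.22, 0.058). With the replicate number as a block it was not called (limma adjusted p = 0.082), nor after the GC and length correction (0.12, limma adjusted p = 0.079).

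SLC30A1 (ENSG00000170385.9, chromosome 1, 211744910 to 211752084, minus strand) encodes ZnT1, which exports zinc across the plasma membrane. It had 37.0, 36.6 and 39.2 RPM in controls and 47.0, 43.0 and 42.5 in knockdowns, and the groups were apart. Its log2 fold change was 0.23 (SE 0.06; limma adjusted p = 0.0082), and 0.13 (limma adjusted p = 0.042) after the GC and length correction. SLC30A1 rose and the tested member metallothioneins fell. MTF1 is a known activator of both, and its part in these changes was not tested. SLC39A10 (ENSG00000196950.9, chromosome 2, 196440701 to 196602426) encodes ZIP10, a zinc importer of the plasma membrane. It had 31.3, 33.9 and 31.4 RPM in controls and 42.3, 43.4 and 42.5 in knockdowns. The rise to 133% of control, a log2 fold change of 0.41 (SE 0.05; limma adjusted p = 0.00015), was well beyond the spread within groups. SLC39A10 overlaps AHCYP5 and RNU6-915P on the other strand, which had 68 and 5 reads in all libraries together, against 6818 for SLC39A10. On the same strand, MT1X overlaps RP11-343H19.2 and MTF1 overlaps AL929472.1, each with 0 reads. How reads in such shared stretches were counted is not given in the sources used here.

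Promoter windows from RefSeq (GRCh38.p14; 250 bases before to 50 after the start) were found for 5 of the 10 members: MT2A, MT1X, MTF1, SLC30A1 and SLC39A10. The core of the metal response element was searched as TGCACNC and TGCGCNC on both strands, counting each start once, so that matches may overlap. It occurred at least once in 29.6% of 35116 windows and at least 4 times in 0.601%. The MT2A window held 8 matches and that of MT1X 4, that of SLC30A1 2, and that of MTF1 0, while the 2 SLC39A10 windows held 0 and 1. The 250 bases before the start are shown for MT2A and MT1X, the only member metallothioneins with a window, with the matches in capitals. They hold 7 of the 8 matches of MT2A and all 4 of MT1X.
MT2A promoter, chr16:56608334-56608583, plus strand: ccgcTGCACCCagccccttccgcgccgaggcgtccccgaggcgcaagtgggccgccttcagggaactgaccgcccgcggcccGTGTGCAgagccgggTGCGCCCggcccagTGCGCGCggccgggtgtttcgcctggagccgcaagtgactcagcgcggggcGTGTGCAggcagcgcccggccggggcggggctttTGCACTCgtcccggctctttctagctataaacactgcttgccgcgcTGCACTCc
MT1X promoter, chr16:56682220-56682469, plus strand: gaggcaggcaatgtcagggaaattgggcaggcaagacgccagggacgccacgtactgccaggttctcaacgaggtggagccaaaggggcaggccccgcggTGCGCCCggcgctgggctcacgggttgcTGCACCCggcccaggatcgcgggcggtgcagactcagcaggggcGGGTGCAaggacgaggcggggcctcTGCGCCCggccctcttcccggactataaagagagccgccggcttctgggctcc
A match is a string of letters and not a measured binding site, and no relation between matches and fold changes was tested.

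Over all genes tested 17.5% rose and 23.5% fell, and the counts of the other zinc transporters are given beside these shares. Of the 9 other SLC30 genes, 5 were tested, of which 1 rose and 0 fell, with a median log2 fold change of 0.08, and 3 were called after the GC and length correction (1 higher, 2 lower). The one that rose, SLC30A7, which loads zinc into the Golgi, had 51.2, 46.0 and 49.4 RPM in controls and 62.4, 59.2 and 58.8 in knockdowns (log2 fold change 0.30, SE 0.05; limma adjusted p = 0.0013), and it had 0.16 after the GC and length correction, still called. Of the 13 other SLC39 genes, 10 were tested, of which 2 rose and 1 fell, with a median of -0.07. SLC39A6 (ZIP6), the closest relative of SLC39A10, had 111, 115 and 117 RPM in controls and 162, 168 and 163 in knockdowns. Its log2 fold change was 0.52 (SE 0.04; limma adjusted p = 5.2e-06), beside 0.41 for SLC39A10. SLC39A1 (ZIP1), a widely expressed importer, had 120, 112 and 116 RPM in controls and 82.3, 86.1 and 84.9 in knockdowns. Its log2 fold change was -0.45 (SE 0.05; limma adjusted p = 2.2e-05). The zinc importers thus changed in both directions.

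SLC39A9 rose least, by 0.12 on the log2 scale (limma adjusted p = 0.044), and lost its call in 11 of 20 other fits, including each of the 6 that left out a library (limma adjusted p from 0.053 to 0.112). SLC39A8 (ZIP8) was at 0.700 ± 0.102 RPM in controls and 1.03 ± 0.16 in knockdowns (SD, n = 3), and SLC39A4 (ZIP4) at 3.66 ± 1.10 and 2.41 ± 0.40. Neither passed the test (limma adjusted p = 0.068 and 0.059), and their 95% intervals, 0.06 to 1.05 and -1.04 to -0.08, reach changes as large as those of the genes that passed. These intervals are not adjusted for the number of genes tested, so they can exclude no change where the adjusted p does not pass.

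**Figure D3:**
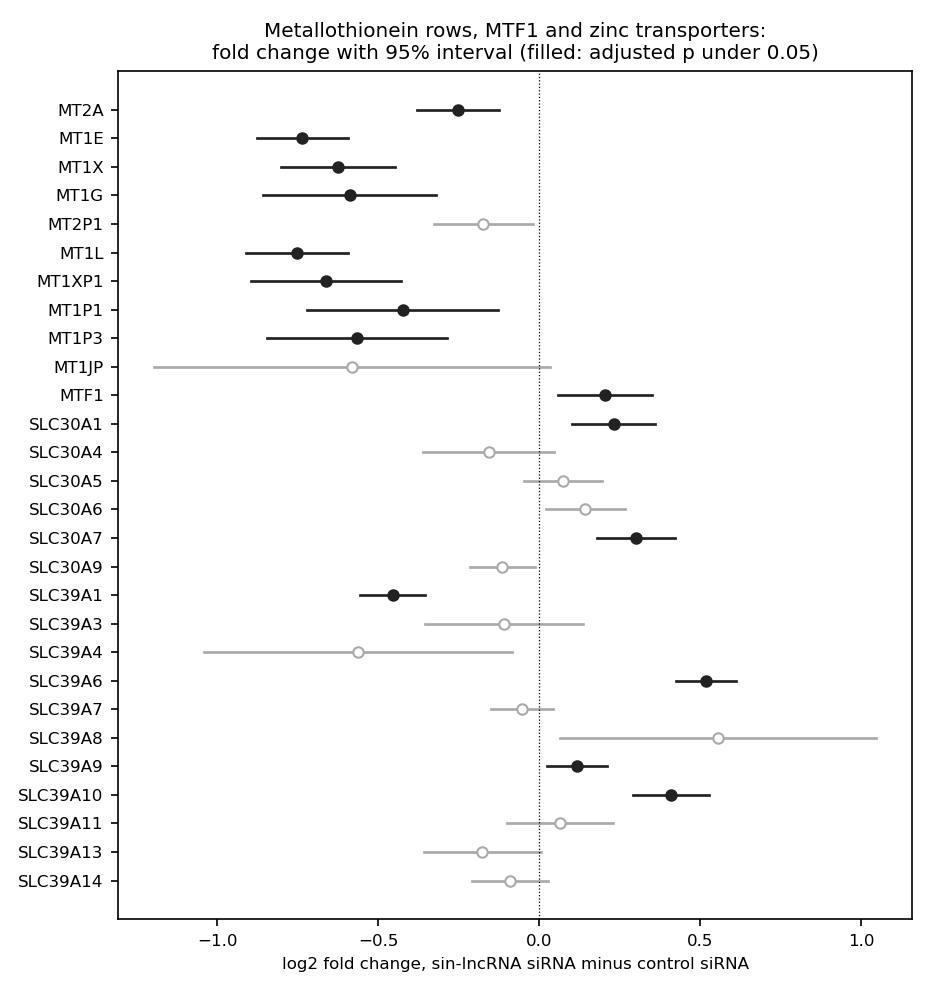
Log2 fold change of knockdown against control (horizontal axis, points) with its 95% interval from limma (lines) for the tested metallothionein rows, MTF1 and the SLC30 and SLC39 genes; filled points had an adjusted p under 0.05. The metallothionein rows lie to the left of 0, and the transporters on both sides.

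**Figure D4:**
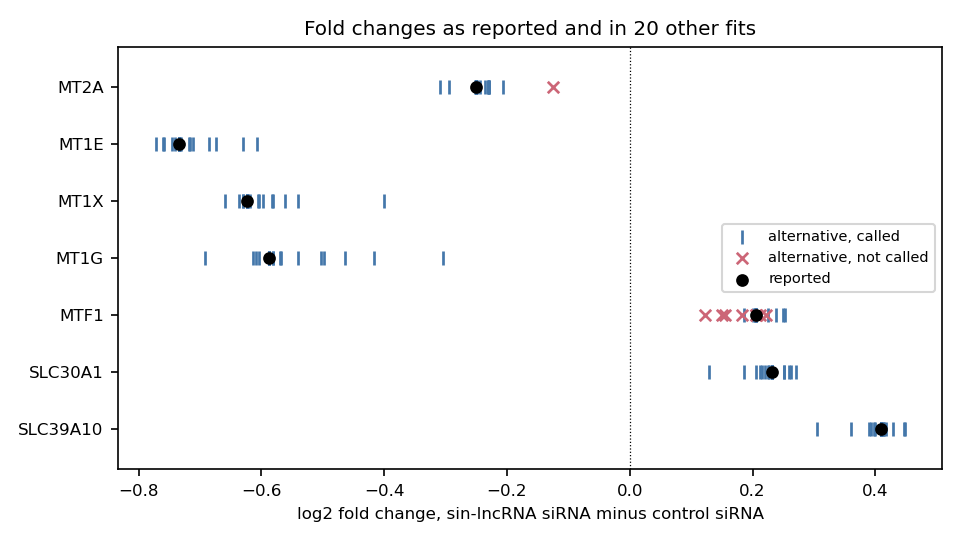
Log2 fold change of each tested member (horizontal axis) as reported and in the other fits; marker shape and colour give whether the call held. Every point keeps its sign, and lost calls occur for MT2A (1 fit) and MTF1 (8 fits).

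Genes of related pathways were read from lists beside these, and their counts stand beside the 41.0% of all genes tested that changed (23.5% fell and 17.5% rose). These lists too were chosen with earlier results known. Of 10 tested copper handling genes, 2 rose and 4 fell (median log2 fold change -0.11). SLC31A1, the copper importer CTR1, fell by 0.38 on the log2 scale, from 181 ± 9 to 139 ± 2 RPM (SD, n = 3). SCO2 fell by 0.41 and COMMD1 by 0.30 (limma adjusted p = 8.7e-05, 0.0015 and 0.0025 for the 3 genes), and SCO2 was at -0.16 and not called after the GC and length correction (limma adjusted p = 0.200). Of 12 genes that metals and oxidative or heat stress induce, 6 fell and 0 rose (median -0.28, beside -0.04 over all genes tested). OSGIN1 fell by 0.64, HMOX1, the heme oxygenase that metals induce, by 0.54, from 25.9 ± 1.6 to 17.7 ± 1.1 RPM, and TXNRD1, a thioredoxin reductase, by 0.50 (SD, n = 3; limma adjusted p = 0.00033, 0.00016 and 0.00016).

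Glucocorticoids also induce metallothioneins, MT2A among them. Of 8 tested genes known to respond to glucocorticoids, 3 rose and 3 fell (median -0.07). FKBP5 had 30.5, 29.3 and 30.2 RPM in controls and 17.4, 13.8 and 16.3 in knockdowns, a log2 fold change of -0.92 (SE 0.08; limma adjusted p = 1.1e-05). GLUL fell by 0.46 (limma adjusted p = 3.3e-05). KLF9 had 22.3, 16.9 and 18.3 RPM in controls and 43.1, 44.2 and 44.4 in knockdowns, a log2 fold change of 1.20 (SE 0.09; limma adjusted p = 2.7e-06). The list thus held large changes of either sign.

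The genes whose log2 values over the 6 libraries were most like those of MT2A, of 15049 compared, were SIPA1, KCNG1 and DZIP1, with Pearson r of 0.998, 0.998 and 0.997. These libraries fall into 2 groups, and 1101 genes had r above 0.9, so the values are a description only. Like MT2A, the 3 genes had control 2 as the lowest control and knockdown 2 as the highest knockdown: SIPA1 had 58.1, 39.0 and 50.1 RPM in controls and 27.7, 36.0 and 28.7 in knockdowns.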

How the data were processed

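PolyA RNA of 6 libraries was read as single 50-base reads, per the labels' protocols. The submitters' processing notes name Bowtie2, featureCounts and hg19, without versions or settings. The authors deposited 1 table of log2 values, which are log2 of reads plus 0.5 per 1000000 of an effective library size, as worked out from the values: undoing this gave whole reads for 100% of values (tolerance 0.001). The normalization tool is not given in the sources used here. RPM are the recovered reads over the effective size.

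limma 3.58.1 (R 4.3.3; lmFit, eBayes with an intensity trend, group as the sole term, two-sided, Benjamini-Hochberg over 19048 genes with a mean of at least 10 normalized reads) was run on the deposited log2 values. The 0.5 reads added before the log weigh more in the shallower knockdown libraries, which shifts fold changes of genes with few reads upward. The fit was tested on simulated data in which 200 of 19048 genes changed. It recovered 65% of changes of 0.5 and 88% of changes of 1 on the log2 scale, and 5.6% of its calls were false. Smaller changes, and as large a share of changed genes as in these data, were not simulated. Pseudocounts, filters, scalings, variance models, voom, thinning, a replicate block and leaving out each library were tried, and a GC and length correction was added after seeing the data.

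Members and lists were chosen with earlier results of these data known. Named were the members, the target, other metallothioneins with at least 10 reads and called SLC30 and SLC39 genes. Also named were the 3 largest called changes of the copper, stress and glucocorticoid lists, and the 3 genes most like MT2A. SLC39A4, SLC39A8, MT1XP1, AC026461.1 and overlapping genes were named beyond this rule. Transcripts came from GENCODE 29 and promoters from RefSeq, both on GRCh38, and no coordinates were converted.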

Additional observations from a re-analysis of the deposited data

How the results depend on the processing

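The count of changed members was 7 as reported and 5 to 7 in 20 other fits: 6 to 7 with a library left out, 6 with eBayes without trend, after thinning and with the replicate block, and 5 after the GC and length correction, which left out MT2A and MTF1. MT1E, MT1X, MT1G, SLC30A1 and SLC39A10 kept direction and call in all 20. With an added threshold of 1 in absolute log2 fold change, 0 of 7 members and 561 of 19048 genes remained in limma, by construction. The count over all genes was 5803 to 7330 with a library left out, lowest without control replicate 3. The log2 ratio of summed metallothioneins lay between -0.33 and -0.24 when single libraries were dropped. The targeted lncRNA stayed past the threshold in all 20 fits, from -2.97 to -0.72, the latter with a pseudocount of 5 RPM, which exceeds its level.

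MT2P1, not called as reported, had a log2 fold change of 0.048 after the GC and length correction (limma adjusted p = 0.366; range over the alternatives 0.010 to 0.366). It was called without control replicate 2 (-0.24), without knockdown replicate 2 (-0.24) and after thinning (-0.19). Of the other metallothionein rows, 1 was called after that correction, against 3. Of the other SLC30 genes, 2 were called with library totals, 2 with quantile normalization and 3 after the GC and length correction (1 higher, 2 lower), against 1. The cause was not tested.

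Replicate numbers are shared between groups but showed no pairing: the libraries numbered 1, 2 and 3 deviated from their groups with correlations of -0.15, -0.18 and 0.07. With the replicate block 6454 genes and 6 members were called, and MTF1 was not. Depth limits MT1A, MT1F, MT1M and MT3.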
